A study of Drosophila melanogaster with 15 samples.

Results

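Hox genes encode homeodomain transcription factors that give the segments of an animal their identity along the head-to-tail axis. Drosophila carries them in 2 groups on chromosome arm 3R, the Antennapedia complex and the bithorax complex, and within each group the genes lie in the order of the body regions they specify. Their on and off states are kept by Polycomb and trithorax group proteins, and microRNAs and long non-coding RNAs transcribed from the same complexes act on some of them. The members described here are the 8 transcription units, of 15991 in the deposited annotation, whose gene names include lab, pb, Dfd, Scr, Antp, Ubx, abd-A or Abd-B. Every gene was found, each in a single unit, and all 8 units lay on 3R. They were chosen by gene symbol alone.

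The annotation belongs to an mNET-seq study, which sequences RNA held by engaged RNA polymerase, of stage 15 Drosophila melanogaster embryos. Embryos with RNA interference against mof, maternally depleted, and control RNA interference embryos were sorted by sex, giving 4 control and 4 MOF samples of females and 3 control and 4 MOF samples of males. All flies were kept at 25 °C and 6000 embryos went into each preparation. The labels do not name the driver of the interference. The file holds unit positions and no value of any sample, so what follows is the map on which nascent transcription of the Hox genes would be read. It carries no expression level and no difference between the 4 groups. Positions are those of the deposited table on dm6, counted from 1. A unit's start is its outermost annotated start, not a start measured in these embryos.

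The Antennapedia complex, from lab to Antp, spanned 337802 bp (6661427 to 6999228) and held 40 units. The gene lab (FBgn0002522), which acts in the most anterior of the Hox domains, occupied 6661427 to 6678590 on the minus strand and had 2 transcripts. Next came pb (FBgn0051481), needed for the adult mouthparts, from 6707800 to 6742063 on the minus strand with 4 transcripts. Dfd (FBgn0000439), which specifies the mandibular and maxillary segments, lay from 6791836 to 6802428 with 1 transcript, and it was the only Hox unit of the 8 on the plus strand. Scr (FBgn0003339), which acts in the labial and prothoracic segments and in salivary gland formation, lay from 6823120 to 6849981 on the minus strand, in a unit of 4 transcripts. Antp (FBgn0260642), the thoracic gene that gives the complex its name, closed the series from 6896253 to 6999228 on the minus strand, in a unit of 12 transcripts. Since Dfd alone is read toward higher coordinates, it was also the only Hox unit whose end faced the end of the next Hox unit, Scr, across 20691 bp.

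**Figure D1:**
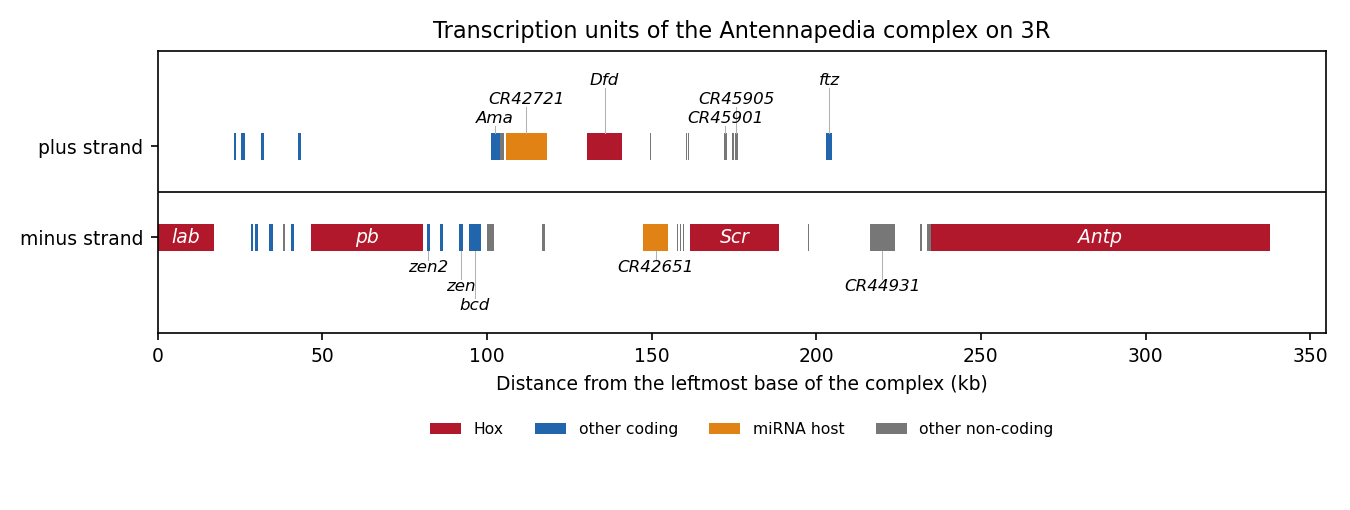
Units of the Antennapedia complex by distance in kb from its leftmost base, with plus-strand units above the line and minus-strand units below it, and colours for the kind of unit. The 5 Hox units are red, 4 of them on the minus strand, and the short units cluster between lab and Dfd and around Scr.

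The bithorax complex began 9657394 bp beyond the Antp unit, with 1388 units in between. It spanned 315614 bp (16656623 to 16972236) and held 12 units. Ubx (FBgn0003944), which sets the identity of the metathorax and the haltere, lay from 16656623 to 16734426 with 6 transcripts. It was followed by abd-A (FBgn0000014), the gene of the anterior and middle abdomen, from 16807214 to 16830049 with 4 transcripts. Abd-B (FBgn0000015), the gene of the posterior abdomen and genitalia, lay from 16927212 to 16972236 with 10 transcripts. All 3 were on the minus strand, so that transcription of each ran toward the more anterior gene. Along 3R the annotated order was thus lab, pb, Dfd, Scr, Antp and, after the interval between the complexes, Ubx, abd-A and Abd-B.

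The Hox units differed 9.72-fold in length among themselves. Antp was the longest at 102976 bp and ranked 88th of all 15991 units, or 17th of the 3810 on 3R. Ubx followed with 77804 bp (rank 149), Abd-B with 45025 bp (rank 384) and pb with 34264 bp (rank 568). The units of Scr (26862 bp, rank 758), abd-A (22836 bp, rank 897) and lab (17164 bp, rank 1216) came next. Dfd, at 10593 bp, ranked 1875th and was still longer than 88.3% of all units and 85.9% of units with a protein-coding gene. All 8 reached 10 kb, against 12.4% of all units and 14.9% of protein-coding units. Their median of 30563 bp was 16.8 times the median of all units (1817 bp) and 13.6 times that of protein-coding units (2241 bp). Length did not follow the order of the body axis, since the 2 longest units, Antp and Ubx, sit in the middle of the series and Dfd, the shortest, lies between pb and Scr.

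Transcript number varied too. Antp with 12 and Abd-B with 10 transcripts belonged to the 288 units of the table, 1.80%, that have 10 or more. Among units of 10 kb or more the share was 12.2%. Dfd was the only Hox unit with a single annotated transcript, as were 54.6% of all units but 9.14% of those of 10 kb or more. In the RefSeq table the transcript counts equalled those of the deposited units for lab, pb, Dfd, Ubx, abd-A and Abd-B. For Scr, RefSeq lists 5 transcripts of the gene itself, against 4 in a deposited unit that also covers a pair of non-coding genes. For Antp RefSeq lists 12, and the deposited table gives 12 for the joint unit without dividing them between Antp and the non-coding gene CR43252.

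Other homeobox genes were shorter at the median. Of 60 such units, listed by hand and not from protein sequence, 31 (51.7%) reached 10 kb, and their median was 11196.5 bp. They ran from btn (477 bp) to hth, which encodes a Hox cofactor and shares a unit of 132008 bp with mir-4944. The hth unit was the only other homeobox unit longer than Antp, and also the only such unit longer than Ubx, the next being ct at 69712 bp. There were 9 other homeobox units longer than the Hox median and 31 longer than Dfd. The 9 include a joint unit of 50283 bp that holds ind beside Sytbeta and further genes, and a joint unit of NK7.1 and HEATR2 (43539 bp). The lengths of such joint units need not be those of the homeobox gene. The other genes listed by hand as Hox cofactors or partners were shorter than hth. These were exd, the PBX-type cofactor on X, at 4042 bp, tsh at 8419 bp and cad at 12405 bp, which is longer than Dfd. Of these genes, hth, exd and cad are also counted among the 60 other homeobox units. The 60 also include zen, zen2, bcd and ftz, which lie inside the Antennapedia complex and measure 3625 bp or less each. Among the regulators, 15 Polycomb group units had a median of 7137 bp, from Sce (1599 bp) to jing (119787 bp), and 10 trithorax group units a median of 13352 bp, from ash2 (3252 bp) to skd in its joint unit (34621 bp). Pc itself, which gives the Polycomb group its name, measured 11883 bp, and trx 23546 bp. No test was made of these differences, as the Hox genes lie in only 2 places and the lists were chosen with earlier results known.

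**Figure D2:**
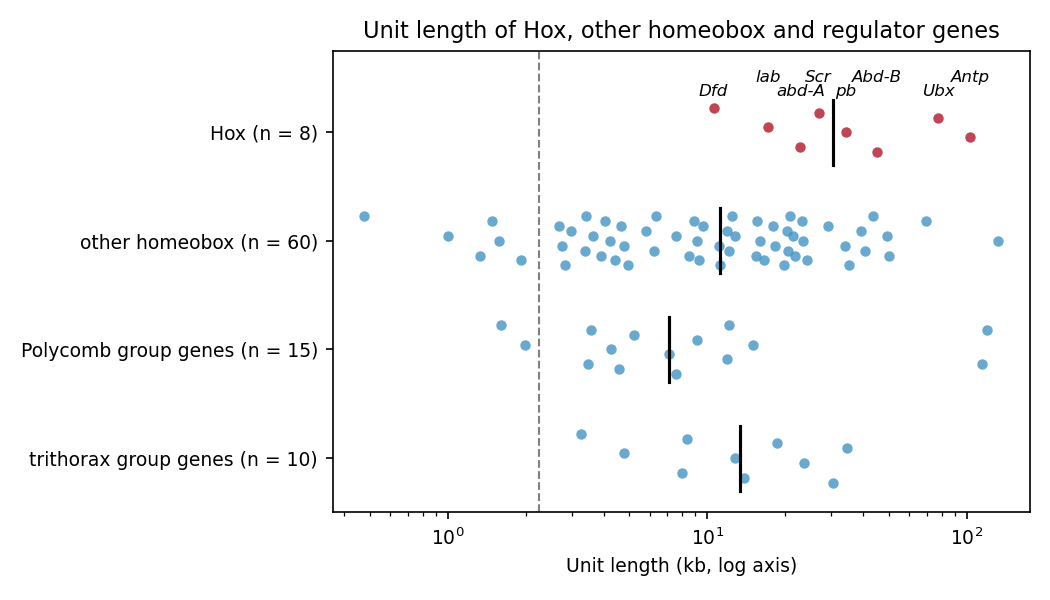
Length in kb on a log axis of each unit in 4 sets, 1 point a unit, with a black bar at each median and a dashed line at the median of protein-coding units (2241 bp). The 8 Hox units lie between 10593 and 102976 bp, and the sets overlap. The vertical place of a point within its row carries no value.

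Of the 8 Hox units, 2 were joint units, and in both the Hox gene had the bounds of the whole unit. The Scr unit included CR45902 (6834343 to 6834967, 625 bp) and CR45903 (6835380 to 6835690, 311 bp), long non-coding RNA genes on the same strand. Their own starts lay 15014 and 14291 bp downstream of the Scr start, near the middle of the unit. The Antp unit included the long non-coding RNA gene CR43252 (6903442 to 6904682, 1241 bp), whose start lay 94546 bp downstream of the Antp start, or 91.8% of the way along the unit. A count over either unit would not separate these RNAs from the Hox gene. Joint units made up 7.15% of all units and 28.7% of those of 10 kb or more.

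Antisense units were found within 2 of the 8 Hox units (25%) and the other 6 had none. An overlap with any opposite-strand unit was present in 39.1% of all units and 49.5% of those of 10 kb or more. Inside Scr, 3 non-coding genes lay on the plus strand, each over its whole length, namely CR45901 (6833363 to 6834247, 885 bp), CR45904 (6835869 to 6836358, 490 bp) and CR45905 (6836666 to 6837608, 943 bp). Their starts were 16618, 14112 and 13315 bp from the Scr start. The 5 non-coding genes of the Scr unit therefore fell in its middle stretch and started from 49.6% to 61.9% of the way along it. CR45902 and CR45903, on the Scr strand, lay between CR45901 and CR45904. Together the antisense units covered 2318 bp, or 8.63% of Scr. Only 15 units in the whole table (0.0938%) had 3 or more opposite-strand CR or mir units nested in them. In Abd-B the plus-strand CR46267 (16951907 to 16953770, 1864 bp) began 20329 bp from the Abd-B start and covered 4.14% of the unit. Nested opposite-strand units made only of CR or mir genes, a narrower class, were present in 3.19% of all units and 15.3% of those of 10 kb or more.

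**Figure D3:**
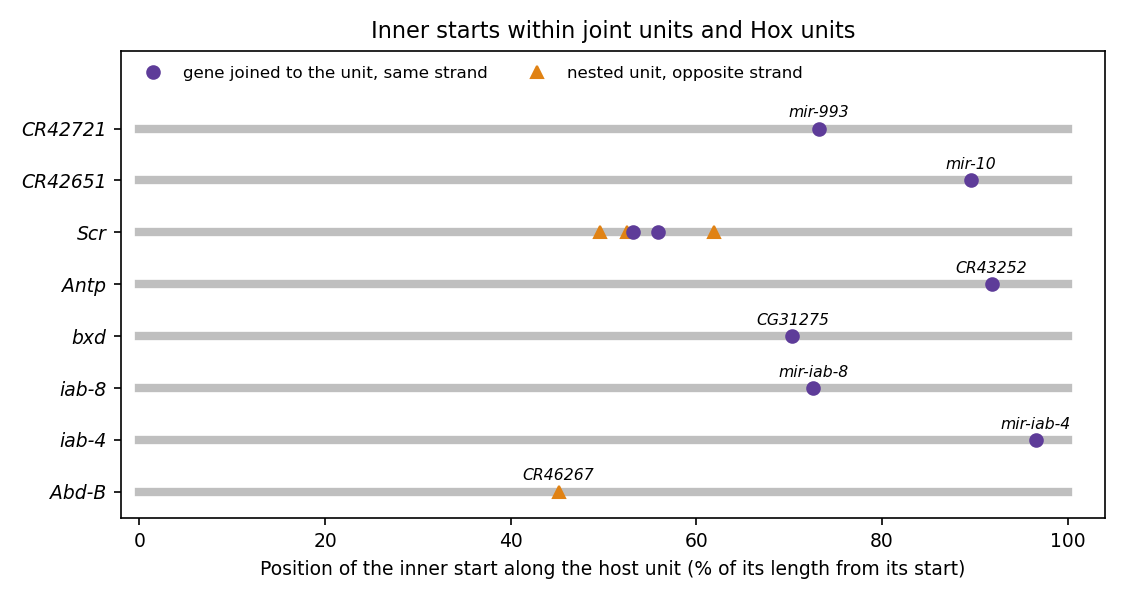
Position of each inner start along its host unit, in % of the host's length from the host's start, with circles for genes joined on the same strand and triangles for units nested in a Hox unit on the opposite strand. The 5 inner starts of Scr, from CR45905 at 49.6% to CR45901 at 61.9%, crowd its middle, and the other 6 joined genes lie between CG31275 at 70.4% and mir-iab-4 at 96.6%.

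The complexes held 17 units made only of CR or mir genes, 13 in the Antennapedia complex and 4 in the bithorax complex. Besides the 4 antisense to a Hox unit, 6 were antisense to a unit other than a Hox unit, and 7 overlapped no unit. Of the 6, CR45593 faced Ama and CR43617 faced iab-8, and the others faced each other in pairs, the host of mir-993 with CR43435 and the host of mir-10 with CR45915. Their median length was 951 bp, against 693 bp for all 2413 such units of the table, and 13 of the 17 had a single transcript. Between lab and pb no unit carried a CR or mir name. That interval of 29209 bp held 9 short units, 8 of them coding, namely the cuticle protein gene Edg84A and the Ccp84A genes from Ccp84Ag to Ccp84Aa, and the non-coding pncr002:3R (605 bp). RefSeq names the last lncRNA:CR33938, so it is a CR gene that the count by deposited name leaves out.

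Between pb and Dfd (49772 bp) lay the diverged Hox relatives that no longer specify segments. These were zen2 (1002 bp) and zen (1331 bp), which acts in the dorsal extraembryonic tissue, and bcd (3625 bp, 5 transcripts), the maternal gene of the anterior pattern. All 3 were on the minus strand, like pb. The start of pb lay 1071 bp beyond the end of zen2. CG34297 (940 bp) stood between zen2 and zen. Further on, CR45593 (minus strand, 6761513 to 6763478, 1966 bp) shared 886 bp with Ama (plus strand, 2669 bp), an immunoglobulin-type adhesion gene. CR44930 (plus strand, 6765485 to 6766709, 1225 bp) followed without an overlap. Leaving out the host of mir-iab-8 (92116 bp), which has no CR name, the longest CR or mir unit of both complexes was CR42721, the host of mir-993. It occupied 6767050 to 6779728 on the plus strand (12679 bp). The mir-993 gene, 119 bp in RefSeq, began 9283 bp into it. CR43435 (6778117 to 6778952, 836 bp) lay antisense inside that unit, and 12107 bp without any unit then separated the host's end from the start of Dfd.

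Dfd and Scr were separated by 20691 bp with no coding unit. Here lay CR42651, the host of mir-10 (minus strand, 6808796 to 6816379, 7584 bp), for which RefSeq gives pri-mir-10 as a synonym. The mir-10 gene, 77 bp in RefSeq, began 6797 bp from the host's start and ended 710 bp before the host's end. CR45915 (plus strand, 6810819 to 6811246, 428 bp) was nested antisense in the host. The rest of the interval held 5 lysine tRNA genes or pseudogenes and 2 genes for 7SL RNA, the RNA of the signal recognition particle, all 7 being 299 bp or shorter. The nearest of these to Scr, tRNA:Lys-TTT-2-4, lay only 84 bp beyond its end on the same strand.

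The interval from Scr to Antp (46271 bp) held ftz, a Hox-derived pair-rule gene, on the plus strand (6864324 to 6866244, 1921 bp). Its 4 non-coding units were all on the minus strand, namely CR45900 (6858839 to 6859192, 354 bp), CR44931 (6877678 to 6885278, 7601 bp), CR45559 (6892918 to 6893462, 545 bp) and CR44932 (6895178 to 6896128, 951 bp). CR44931 carries the synonym lincX in RefSeq. CR44932 began 124 bp beyond the end of Antp, on the strand of Antp. On the other side of Antp, CR45899 (plus strand, 932 bp) started outside the complex, with 1263 bp between the units and the starts pointing away from each other.

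The bithorax complex, cut at the outer edges of its Hox units, was sparse in units. It had 3.80 units per 100 kb, against 11.8 in the Antennapedia complex and 12.1 on the whole arm, measured from its first to its last unit. Units covered 86.5% of its bases, against 72.3% and 74.0%. The Hox units alone covered 46.2% of the bithorax complex and 56.8% of the Antennapedia complex, so densities and covered shares partly follow from the bounds. Between neighbouring Hox units, coverage was 48.3% and 94.8% in the bithorax complex and from 24.6% to 49.3% in the Antennapedia complex. Units with a coding gene stood at 1.58 per 100 kb in the bithorax complex, 5.62 in the Antennapedia complex and 10.2 on the arm. Both complexes were thus below the arm. Units made only of CR or mir genes stood at 1.27 per 100 kb in the bithorax complex, 3.85 in the Antennapedia complex and 1.55 on the arm. Counting every unit without a coding gene, the densities were 2.22, 6.22 and 1.88 per 100 kb, which puts the bithorax complex above the arm instead of below it. The strands were unequal in covered length. Minus-strand units covered 85.2% of the bithorax complex and plus-strand units 5.67%, with 63.0% and 10.6% in the Antennapedia complex. On the arm each strand had close to the same (38.2% and 38.9%). Of the 8 Hox units, which set the bounds, 7 are on the minus strand, so the minus-strand excess partly follows from the choice of members. By number of units the bithorax complex leaned the other way, with 5 on the minus and 7 on the plus strand.

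Between Ubx and abd-A units covered 48.3% of 72787 bp, most of it by the non-coding bxd. The bxd unit (16742125 to 16773189, 31065 bp, 5 transcripts) lay upstream of Ubx on the same strand, and 7698 bp separated its end from the Ubx start. It also held CG31275, a coding gene of 594 bp whose start lay 21855 bp into the unit. Beyond it, on the plus strand, came CR44945 (16783497 to 16784672, 1176 bp), the sugar transporter gene Glut3 (1711 bp), CR45750 (16800600 to 16801203, 604 bp) and lncRNA:TS16 (579 bp). None of these overlapped another unit.

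Between abd-A and Abd-B the single iab-8 unit covered 94.8% of 97162 bp. This long non-coding RNA, known to act on abd-A in the posterior nervous system, spanned 16831116 to 16923231 on the minus strand (92116 bp, 13 transcripts). It ranked 109th in length of all units, and of the 8 Hox units only Antp was longer. Its start lay 3980 bp beyond the end of Abd-B, and its end stopped 1066 bp short of the abd-A start, so that Abd-B, iab-8 and abd-A followed each other head to tail. The iab-4 unit (16850004 to 16856497, plus strand, 6494 bp, 5 transcripts) lay wholly inside iab-8 and took up 7.05% of it. The plus-strand CR43617 (16892410 to 16897861, 5452 bp) was nested there too.

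The microRNA genes of these units occupied the same bases on opposite strands. Both mir-iab-4 and mir-iab-8 were at 16856275 to 16856342 (68 bp). The gene mir-iab-4 began 6271 bp into its host of 6494 bp, or 96.6% of the way along, and mir-iab-8 began 66889 bp into its host, or 72.6%. Of 256 microRNA genes matched to RefSeq, this was the only pair with identical bounds on opposite strands. These microRNAs are known to repress Hox genes of the complex. Without strand, reads over this stretch could not be assigned to either.

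The sequence open on each side of a Hox unit differed between members. The nearest unit upstream of a start was 12107 bp away for Dfd, 8857 bp for Scr (CR45900), 7698 bp for Ubx (bxd) and 5854 bp for lab (Edg84A). It was 2967 bp away for Abd-B (VhaM9.7-d), 1263 bp for Antp, 1071 bp for pb (zen2) and 1066 bp for abd-A (iab-8). The median was 4410.5 bp, against 614 bp for all units, 1275 bp for units of 10 kb or more, and 7347 bp for the other homeobox units. In 5 of the 8, all but lab, Antp and Abd-B, that upstream unit was on the same strand, as it was for 50.1% of all units.

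Downstream, the nearest unit was 84 bp away for Scr, 124 bp for Antp, 960 bp for Ubx (modSP), 1326 bp for lab (agt), 2896 bp for pb (Ccp84Aa), 3980 bp for Abd-B, 5336 bp for abd-A and 6367 bp for Dfd. The Hox median was 2111 bp, against 921 bp for all units. In Scr, Antp, Ubx, lab and Abd-B this downstream unit was on the strand of the Hox gene. There, RNA continuing past the annotated end would run into that unit on the same strand. The share of all units with a same-strand downstream neighbour was not counted, so this arrangement is not shown to be particular to Hox units. Some coding neighbours were much farther off. The nearest coding unit upstream of Antp was Sodh-1, 53106 bp away, and that upstream of Dfd was Ama, 26574 bp away. For abd-A it was Abd-B, 97162 bp away, going by the genes named in the deposited units. RefSeq places a coding gene without a unit of its own, MSAmiP (16831115 to 16896293), between abd-A and Abd-B.

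**Figure D4:**
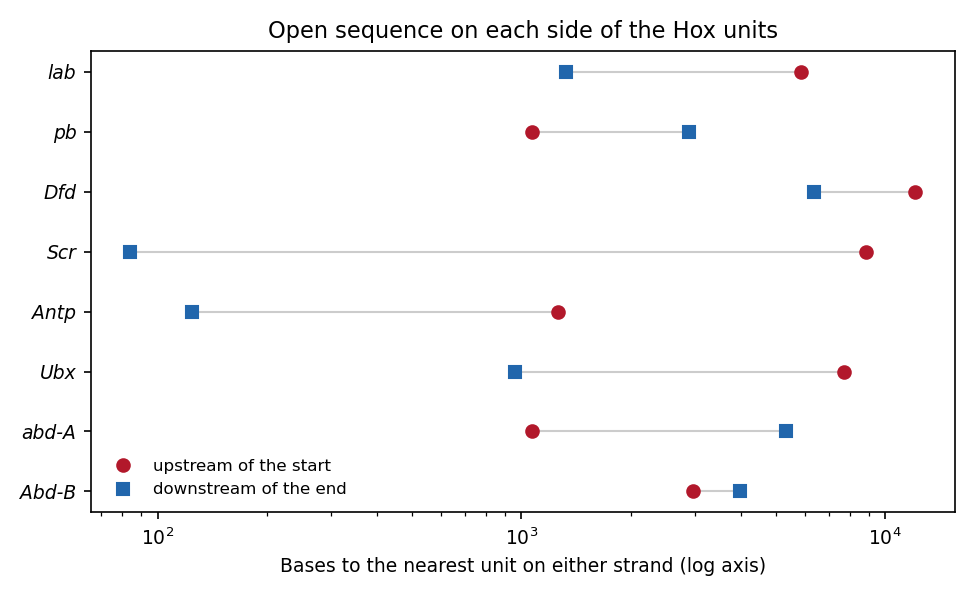
Bases, on a log axis, from each Hox unit to the nearest unit on either strand, upstream of its start (circles) and downstream of its end (squares). Scr and Antp have the closest downstream units, at 84 and 124 bp, and Dfd has the widest upstream stretch, at 12107 bp.

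All 8 Hox units had exactly the bounds of the RefSeq gene. RefSeq lists 62 genes in the 2 complexes together, and 59 of them were matched to a unit used here. The other 3 overlap Hox or iab-8 units. They are asRNA:PS4, an antisense RNA gene of 9833 bp (16720127 to 16729959) wholly inside Ubx, CG46458, a coding gene of 62118 bp (6896253 to 6958370) inside Antp, and MSAmiP, a coding gene of 65179 bp that overlaps iab-8. With the RefSeq genes counted, Ubx would join Scr and Abd-B among the Hox units with an antisense RNA. With MSAmiP counted, the interval between abd-A and Abd-B would hold a coding gene. The counts of units with and without a coding gene treat iab-8 as non-coding, by the deposited names.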

How the data were processed

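The series is mNET-seq of 15 samples, but the file used here is an annotation and holds no value of any sample. Its columns give the start and end of each transcription unit in bp, as deposited by the authors, on build dm6 per the submitters' processing notes. It was written with rtracklayer 1.48.0, per the file headers. No header or label states the annotation release or how genes were merged, and the depth of each sample is unknown. Of 17698 genes, 17599 were matched to a RefSeq gene table of Release 6 by symbol (14056), CG or CR number (3203) or a synonym (340). That table supplied gene types and the bounds of genes inside joint units. Its assembly and dm6 are the same release.

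The members, the lists and the comparisons were chosen with earlier results of these data known. No test was made: a single annotation has no replicates, and values are set beside those of all units. An overlap is at least 1 bp, and a distance counts the bases between a unit and the nearest unit that does not overlap it, on either strand. The genes named are the 8 Hox genes, genes that share a unit with them, every CR and mir unit inside a complex or antisense to a Hox unit, zen, zen2, bcd, ftz, Ama, the nearest coding neighbours, and the longest and shortest unit of each list. The other units of the complexes, and the units near the Hox genes in length, were named after their values were seen. The list of other homeobox genes was written by hand, after the file was seen, in place of a list from protein letters. Interval counts were tested on simulated data and run in Python 3.11.15 with numpy 2.4.6.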

Additional observations from a re-analysis of the deposited data

How the results depend on the processing

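The Hox median length of 30563 bp was unchanged with RefSeq gene bounds and was 28550 bp over the 6 single-gene units. The share of units shorter than it was 95.9% of all units, 95.0% of units with a protein-coding gene, 95.9% of units on 3R and 94.2% of units of 1000 bp or more. The 17 CR and mir units became 18 with the complexes extended by 10 kb on each side, 21 when any unit that holds such a gene counts, and 28 when any unit without a coding gene counts, an alternative chosen after seeing the data. The last adds 7 tRNA or 7SL units and 4 with other names. The 4 antisense CR units stayed 4 when at least 50% of the unit had to overlap and with RefSeq bounds. No paired analysis was possible because the file holds no value of any sample. The list of homeobox genes by protein letters and the promoter motifs were not run, as no sequences were used here.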
